A study of Mus musculus with 20 samples.

Results

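Endod1, Plekho2, Gfra2 and Nudt4 are 4 mouse genes of the class whose transcription falls fastest when the transcription factor IKZF1 enters the nucleus of pre-B cells. They were chosen by name as fast-repressed genes, that is, from their early fall in these same libraries, and Endod1 and Plekho2 are also among the genes whose bursts of transcription the study imaged. Each symbol matched 1 Ensembl identifier, so that the genes make up 4 of the 56239 identifiers counted and 4 of the 16601 that passed the filter on low counts. All 4 had counts in each of the 20 libraries, from 344 for Plekho2 at 2 h to 40481 for Gfra2 at 0 h. Since the early fall chose them, it is described below without a test, and only steps between later time points were tested. The class itself was drawn from the whole time course, later libraries included, so the later tests are not fully independent of that choice. The step from 2 to 6 h also starts from the 2 h libraries, which are part of the early fall.

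The libraries were made from the mouse pre-B cell line B3 after retroviral transduction with Ikaros-ERt2, in which IKZF1 (Ikaros) is joined to the hormone-binding domain of the oestrogen receptor. The fusion protein stays outside the nucleus until 4-hydroxytamoxifen (4-OHT) is given, here at 500 nM. RNA bound to chromatin was sequenced without treatment (0 h) and at 30 min, 1, 2, 6, 12, 15, 18, 21 and 24 h of 4-OHT, in 2 replicates for each of the 10 times. Every group carries the transgene and no library without it or with vehicle alone was analysed here, so that effects of 4-OHT, of time in culture and of nuclear IKZF1 cannot be told apart, and the transduced cells are 1 cell line. The labels do not say whether replicates, those at 0 h in particular, were separate cultures, and p-values then measure only the spread between these libraries.

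IKZF1 is a zinc-finger protein that binds DNA and is required for lymphocyte development, and it recruits corepressor complexes such as NuRD. RNA that is still attached to chromatin is mostly in the course of being made, so its level follows transcription more closely than the level of mature messenger RNA does. The 4 genes are known for different roles. Gfra2 encodes a co-receptor on the cell surface that binds the ligand neurturin and presents it to the receptor tyrosine kinase RET. Plekho2 encodes a protein with a pleckstrin homology domain and is the paralog of Plekho1. Nudt4 encodes a Nudix hydrolase that removes phosphate from diphosphoinositol polyphosphates, small signalling molecules. Endod1 is named for an endonuclease domain in its product.

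On GRCm38/mm10 the genes lie on 3 chromosomes, with Endod1 (ENSMUSG00000037419) at chr9:14353990-14381507 and Plekho2 (ENSMUSG00000050721) at chr9:65552698-65580040, both on the minus strand. Gfra2 (ENSMUSG00000022103) lies at chr14:70890120-70979838 on the plus strand and Nudt4 (ENSMUSG00000020029) at chr10:95547007-95564146 on the minus strand. They span 27.5, 27.3, 89.7 and 17.1 kb in that order, and introns make up 83.1%, 79.7%, 96.1% and 81.3% of them. Since intronic reads were counted, each value is a sum over the gene body and not a measure at its start. The only annotated gene that overlaps one of them is Mir3058, 91 bases long on the strand of Nudt4, which had 0 counts in every library.

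The study counted the letters GGAA and GGGA, the core of the IKZF1 motif, in accessible regions, and the same letters were searched on both strands of RefSeq promoters (GRCm38.p6). Promoter entries were matched for Plekho2 and Nudt4 only, and none was found for Endod1 or Gfra2. The 250 bases before the start are shown for both matched genes, which differ in how many such letters they hold. GGAA, GGGA and their reverse complements TTCC and TCCC are in capitals. The stretch for Plekho2 is chr9:65580088-65580337 and that for Nudt4 chr10:95564147-95564396, both read on the minus strand.
Plekho2: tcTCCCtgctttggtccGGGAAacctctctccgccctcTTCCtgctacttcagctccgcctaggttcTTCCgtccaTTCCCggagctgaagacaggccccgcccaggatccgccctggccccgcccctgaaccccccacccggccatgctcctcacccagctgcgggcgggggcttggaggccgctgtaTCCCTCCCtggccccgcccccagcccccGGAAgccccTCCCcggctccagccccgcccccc
Nudt4: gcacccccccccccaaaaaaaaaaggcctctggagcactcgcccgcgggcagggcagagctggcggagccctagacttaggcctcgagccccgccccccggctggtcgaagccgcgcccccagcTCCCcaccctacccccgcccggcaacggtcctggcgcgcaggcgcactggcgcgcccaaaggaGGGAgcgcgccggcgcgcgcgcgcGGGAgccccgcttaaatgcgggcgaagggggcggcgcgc
The printed stretch holds 11 starts of these motifs in Plekho2 and 3 in Nudt4, at a GC content of 72.4% and 76.4%. Over the whole window of 300 bases, which includes 50 after the start, the counts were 12 and 4. Of 32851 promoters of this length, 11.9% hold at least as many as Plekho2 and 88.4% at least as many as Nudt4, with a median of 7, and 99.6% hold at least 1. The longer GGGAA, which overlaps both shorter motifs, was found 2 times in Plekho2 and 0 times in Nudt4, against 62.7% of promoters that hold it. A match of letters is no evidence of binding, and nothing follows from a missing one.

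Total counts ran from 33296158 to 46868954 per library with a median of 40943260. Values below are CPM, counts relative to library size, after TMM scaling, which corrects for differences in composition between libraries, and their scaling factors ran from 0.870 to 1.06 with the lowest values at 21 and 24 h. Replicates differed more at 12, 18 and 21 h (chi-square per degree of freedom 9.95, 14.9 and 4.78) than at the other time points (1.26 to 2.58). Of 12 pre-B cell markers, 9 reached a mean of 1 CPM, and Rag1 and Rag2, both overlapped by another annotated gene, were listed at 0 throughout. The T cell, myeloid and erythroid markers summed to at most 5.78, 1.70 and 0.0300 CPM in any library, against 8639 to 17015 CPM for the pre-B markers. Ikzf1 itself, in which the transgene and the resident gene cannot be told apart, stood at 4842 ± 4.43 CPM (SD, n = 2) at 0 h and 8804 ± 599 CPM (n = 2) at 24 h.

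Nudt4 fell first. It stood at 182 and 186 CPM in the replicates at 0 h, then at 39.9 and 39.8 (30 min), 34.2 and 35.6 (1 h) and 30.4 and 28.6 (2 h). The replicates lay far apart from those at 0 h at once, and nearly the whole change was over at the first sample taken. By 30 min 21.7% of the 0 h level was left and 92.1% of the eventual fall was complete. The log2 change from 0 h was -2.21 (SE 0.046) at 30 min and -2.64 (SE 0.048) at 2 h.

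Endod1 fell mainly over the first hour. Its level was 211 CPM in both libraries at 0 h, 75.9 and 77.1 CPM at 30 min, 37.9 and 39.9 CPM at 1 h, and 31.3 and 32.5 CPM at 2 h. No replicate pair overlapped the pair before it. What was left of the 0 h level came to 36.2% after 30 min, 18.4% after 1 h and 15.1% after 2 h. The log2 change was -1.47 (SE 0.044) at 30 min and -2.73 (SE 0.047) at 2 h.

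Plekho2 started like Endod1 and went lower. It was measured at 151 and 146 CPM at 0 h, 50.6 and 49.1 CPM at 30 min, 11.5 and 12.1 CPM at 1 h, and 8.98 and 9.44 CPM at 2 h, the lowest values it had in any library. These correspond to 33.7%, 7.97% and 6.22% of the 0 h level. The log2 change reached -1.57 (SE 0.052) at 30 min and -4.01 (SE 0.063) at 2 h, which is 16.1-fold.

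Gfra2, with 875 and 869.9 CPM at 0 h, started more slowly and fell furthest. It still held 568 and 578 CPM at 30 min, then 99.8 and 100.1 CPM at 1 h and 46.2 and 46.3 CPM at 2 h. The share left was 65.7% at 30 min, the highest of the 4 genes, and 5.30% at 2 h, the lowest of them. Its log2 change was -0.61 (SE 0.033) at 30 min, -3.13 (SE 0.036) at 1 h and -4.24 (SE 0.039) at 2 h.

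**Figure D1:**
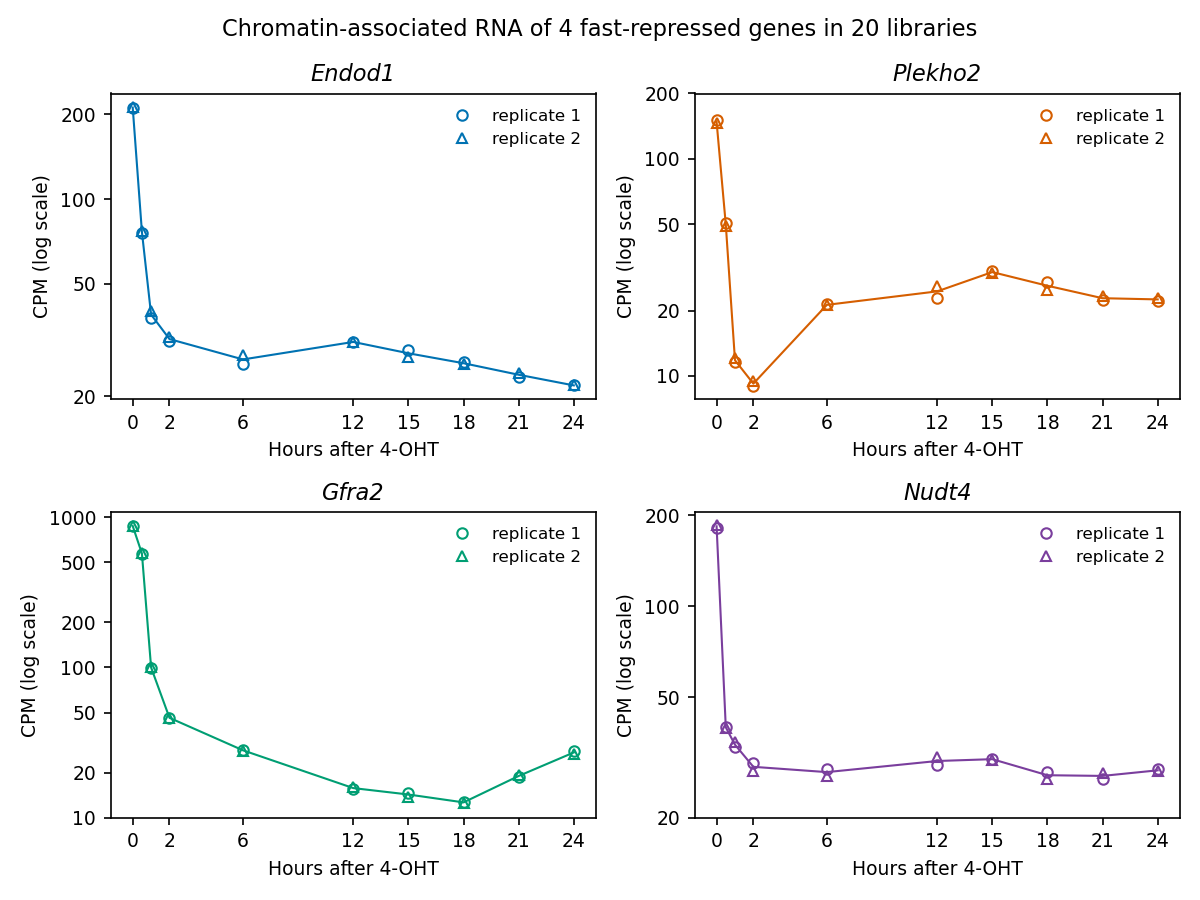
CPM (log scale) of each gene in all 20 libraries against hours after 4-OHT, with circles and triangles for replicates 1 and 2 and lines through their means. Nudt4 and Endod1 stay low after the early fall, Plekho2 rises from 9.21 CPM at 2 h to 30.1 CPM at 15 h, and Gfra2 rises from 12.7 CPM at 18 h to 27.2 CPM at 24 h.

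Among all genes tested, the members' place at 30 min, counted from the most negative log2 change, was 47 for Nudt4, 127 for Plekho2, 151 for Endod1 and 897 for Gfra2 of 16601. At 2 h the order had turned, with Gfra2 at place 49, Plekho2 at 70, Endod1 at 234 and Nudt4 at 256. The median log2 change of all genes was 0.012 and 0.026 at these times. These places describe the choice of genes and test nothing.

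The rate of fall, as log2 units per hour, separated the genes by interval. In the first 30 min the rate was -4.41 (SE 0.093) for Nudt4, -3.14 (SE 0.10) for Plekho2, -2.93 (SE 0.088) for Endod1 and -1.21 (SE 0.066) for Gfra2. As halving times these are 13.6, 19.1, 20.5 and 49.5 min. Between 30 min and 1 h the order was the opposite one for the extremes, with -5.04 (SE 0.071) for Gfra2, -4.16 (SE 0.12) for Plekho2, -1.95 (SE 0.093) for Endod1 and -0.38 (SE 0.098) for Nudt4. The halving time of Gfra2 in this interval was 11.9 min, shorter than that of Nudt4 in the first, and that of Nudt4 had lengthened to 157 min. From 1 to 2 h only Gfra2 still fell at more than 1 log2 unit per hour (-1.11, SE 0.037), while the others lay between -0.24 and -0.36.

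Only Plekho2 and Gfra2 thus fell faster in the second interval than in the first. This held with libraries matched by replicate number, a matching that need not follow a single culture. Plekho2 went from -3.15 to -4.26 log2 units per hour in replicate 1 and from -3.13 to -4.05 in replicate 2. Gfra2 went from -1.25 to -5.02 and from -1.18 to -5.06. For Nudt4 the first rate was 11.6 times the second, and Endod1 also slowed in both replicates.

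**Figure D2:**
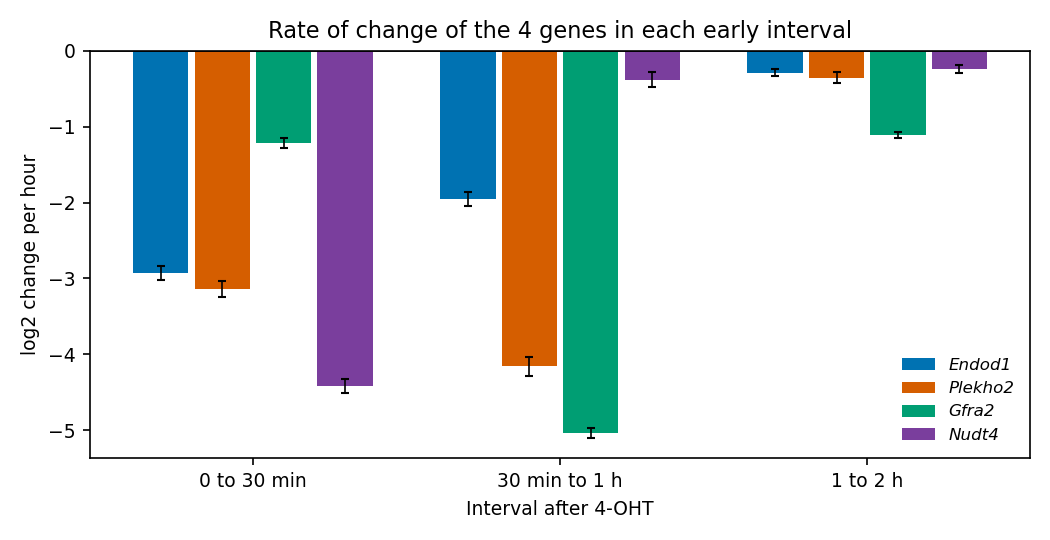
Rate of change of each gene in log2 units per hour for the intervals 0 to 30 min, 30 min to 1 h and 1 to 2 h, with bars from 0 and error bars of 1 SE from the model of all 20 libraries. Nudt4 has the steepest first interval (-4.41) and Gfra2 the steepest second one (-5.04).

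The half-maximal time is the time at which the level, interpolated linearly between samples, crosses the midpoint of 0 h and the lowest time point. It was 16.3 min for Nudt4 (16.4 and 16.3 min in the replicates), 21.1 min for Endod1 (21.0 and 21.2 min), 21.2 min for Plekho2 (21.2 min in both) and 38.3 min for Gfra2 (38.0 and 38.6 min). Endod1 and Plekho2 were not separated by more than the choice of scaling moves them, since with library totals alone the values were 21.6 and 21.3 min and their order turned. On a log2 scale the times were 18.6, 35.3, 36.2 and 59.1 min in the order Nudt4, Endod1, Plekho2 and Gfra2. With no sample before 30 min, times below that restate the share left at 30 min.

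Gene length ran in the same order as the first rate, from Nudt4 with 17.1 kb to Plekho2 with 27.3 kb, Endod1 with 27.5 kb and Gfra2 with 89.7 kb. The part of length in the rates was not tested, and 4 genes give no correlation.

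Levels of different genes are compared per kb of gene body. At 0 h these were 10.7 CPM per kb for Nudt4, 9.72 for Gfra2, 7.68 for Endod1 and 5.42 for Plekho2, and at 2 h 1.72, 0.515, 1.16 and 0.337. Gfra2 thus moved from the second place to the third while Nudt4 stayed highest. At 24 h the order was Nudt4 (1.68), Plekho2 (0.823), Endod1 (0.793) and Gfra2 (0.303).

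After 2 h the courses parted. Plekho2 rose to 21.3 and 21.2 CPM at 6 h, 22.9 and 26.1 CPM at 12 h and 30.4 and 29.7 CPM at 15 h, and then stood at 27.1 and 24.9 CPM at 18 h, 22.4 and 23.2 CPM at 21 h and 22.2 and 22.8 CPM at 24 h. All 12 libraries from 6 h onward lay above both libraries at 2 h. At its late maximum at 15 h Plekho2 had 20.3% of the 0 h level, and at 24 h 15.2%, so that 9.58% of its fall had been regained.

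Gfra2 went on falling for many hours. It had 28.3 and 28.0 CPM at 6 h, 15.6 and 16.0 CPM at 12 h, 14.7 and 13.9 CPM at 15 h and 12.7 and 12.6 CPM at 18 h, its lowest point at 1.45% of the 0 h level, a 68.9-fold fall. It then stood at 18.6 and 19.4 CPM at 21 h and at 27.9 and 26.5 CPM at 24 h. The level at 24 h was 2.15-fold over the lowest and close to that at 6 h, yet it was 3.12% of the 0 h level, and 1.69% of the fall had been regained.

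Endod1 had 25.9 and 28.1 CPM at 6 h, 31.2 and 31.1 CPM at 12 h, 29.2 and 27.5 CPM at 15 h, 26.4 and 25.9 CPM at 18 h, 23.4 and 24.2 CPM at 21 h and 21.8 CPM in both libraries at 24 h. Its lowest point was the last one, at 10.3% of the 0 h level.

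Nudt4 stayed within a narrow band, with 29.1 and 27.6 CPM at 6 h, 30.0 and 31.7 CPM at 12 h, 31.4 and 31.1 CPM at 15 h, 28.3 and 27.0 CPM at 18 h, 26.9 and 28.1 CPM at 21 h and 28.9 and 28.5 CPM at 24 h. Between 2 and 24 h the mean share left ran from 15.0% to 17.0%.

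Ordered by the share of the 0 h level left, most neighbours were apart by more than their replicates. Replicate ranges overlapped for Endod1 and Nudt4 at 1 h and for Plekho2 and Nudt4 at 12, 21 and 24 h.

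**Figure D3:**
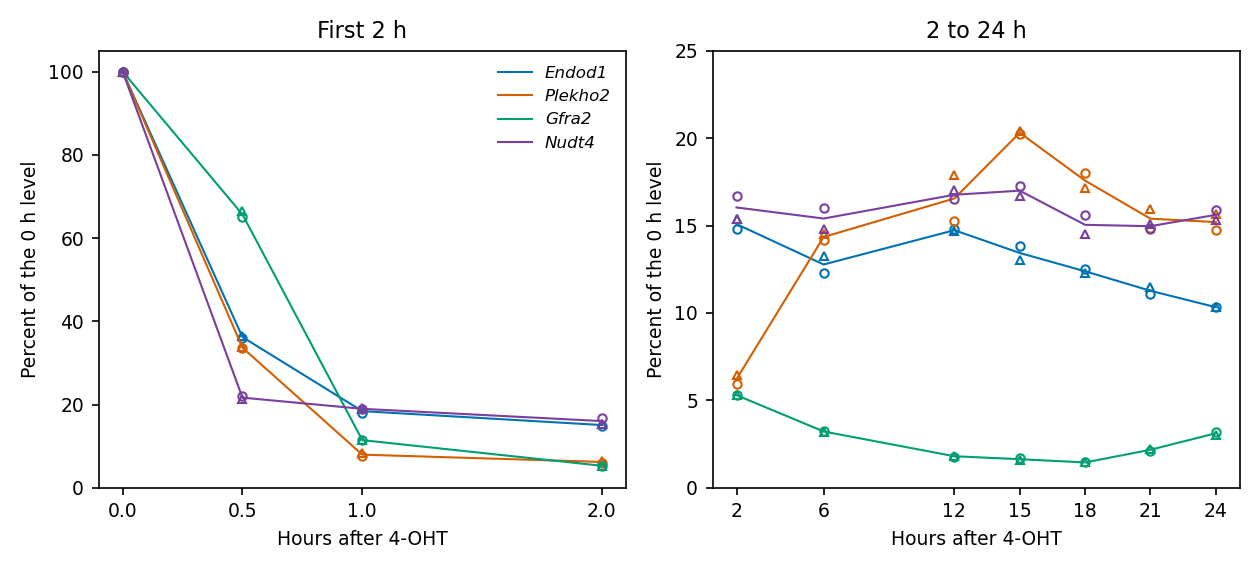
Percent of the 0 h level left in each gene during the first 2 h (left) and from 2 to 24 h (right, smaller scale), with circles and triangles for replicates 1 and 2 and lines for the mean. Gfra2 is highest at 30 min (65.7%) and lowest from 2 h on, and Plekho2 passes from 6.22% at 2 h to 20.3% at 15 h.

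From 2 to 6 h, 3 of the 4 genes changed in edgeR's quasi-likelihood test (Benjamini-Hochberg adjusted p under 0.01), beside 34.4% of all genes tested. This step is not independent of the choice of genes, because low levels at 2 h, the lowest point of Plekho2, belong to the early fall. Plekho2 rose by 1.20 on the log2 scale (SE 0.068, adjusted p = 9.7e-12), 2.30-fold, the only change of a member in a tested step that was above 2-fold, beside 7.17% of all genes that were called with a change of that size. Gfra2 fell by 0.72 (SE 0.040, adjusted p = 8.7e-12) and Endod1 fell by 0.24 (SE 0.050, adjusted p = 0.00055). The call for Endod1 was lost without replicate 2 at 2 h (adjusted p = 0.0131) or without replicate 1 at 6 h (adjusted p = 0.0210). For Nudt4 the log2 change was -0.058 with a 95% interval from -0.16 to 0.048 (adjusted p = 0.374). The difference between the log2 changes of Plekho2 and Gfra2 was 1.92 with an approximate 95% interval from 1.77 to 2.08, built from both standard errors.

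Between 6 h and 24 h as end points, 1 of the 4 genes changed, beside 59.5% of all genes tested. This step does not see the course between them, in which mean levels of Gfra2 fell to 12.7 CPM at 18 h and rose again. Those of Plekho2 rose to 30.1 CPM at 15 h and fell again. Endod1 fell by 0.31 on the log2 scale (SE 0.053, edgeR adjusted p = 2.8e-05). The log2 changes of Plekho2, Gfra2 and Nudt4 were 0.084 (95% interval -0.045 to 0.21), -0.048 (-0.14 to 0.042) and 0.020 (-0.088 to 0.13), with edgeR adjusted p of 0.239, 0.340 and 0.748. The signs for Plekho2 and Nudt4 rest on the scaling. With library totals alone the median of all genes moved by -0.26, and the values became -0.57 for Endod1, -0.18 for Plekho2, -0.31 for Gfra2 and -0.24 for Nudt4, of which all but that of Plekho2 passed the test. Under that scaling 3205 genes passed upward, in place of 4904.

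For the last hours, the mean of 21 and 24 h was compared with the mean of 12 and 15 h. All 4 genes changed in this step, beside 53.1% of all genes tested, of which 26.8% were down and 26.2% up. Gfra2 rose by 0.60 on the log2 scale (SE 0.035, 1.51-fold, edgeR adjusted p = 1.5e-12), in the opposite direction from the others. In TMM-scaled CPM each of its 4 libraries at 21 and 24 h was above each of its 4 at 12 and 15 h. With library totals alone this separation does not hold. Replicate 2 at 12 h had 640 of 38191383 counts, a larger share than the 547 of 33296158 in replicate 1 at 21 h. Endod1 fell by 0.38 (SE 0.038, edgeR adjusted p = 1.2e-08) and Plekho2 fell by 0.26 (SE 0.043, edgeR adjusted p = 2.0e-05). Nudt4 fell by 0.14 (SE 0.037, edgeR adjusted p = 0.0020), a call that was lost with DESeq2 (adjusted p = 0.0174) and without replicate 2 at 12 h or replicate 1 at 21 h (adjusted p = 0.0116 in both). With library totals alone the median of all genes moved by -0.22 in this step, the members' log2 changes became 0.38 for Gfra2, -0.60 for Endod1, -0.48 for Plekho2 and -0.36 for Nudt4, all past the test in the same direction, and genes passed in 2373 cases upward and 7140 downward, in place of 4353 and 4456. Since replicates at 12 and 21 h differed more than most, 24 h was also set against 15 h alone, a comparison chosen after the data were seen, where the log2 changes were 0.93 for Gfra2, -0.38 for Endod1, -0.42 for Plekho2 and -0.12 for Nudt4, the last with an adjusted p of 0.0562.

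**Figure D4:**
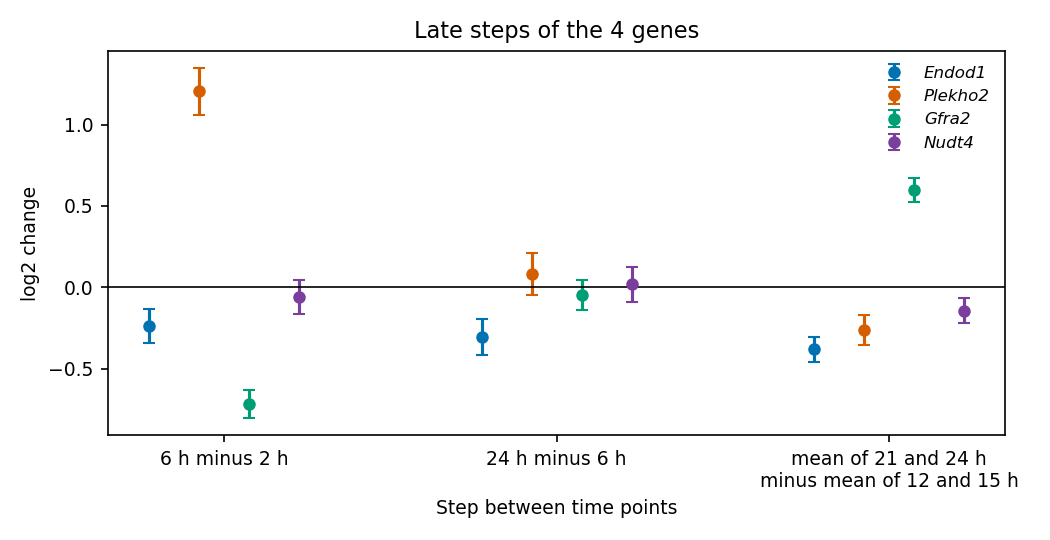
Log2 change of each gene from 2 to 6 h, from 6 to 24 h and from the mean of 12 and 15 h to the mean of 21 and 24 h, with points for the model estimate and bars for its 95% interval. Plekho2 lies highest in the first step (1.20) and Gfra2 in the last (0.60).

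The ratio of a pair of genes within a library does not depend on scaling. Over the same late windows of 4 libraries each, the ratios of all 6 pairs were compared with a two-sided exact permutation test, which has 70 divisions and a smallest p of 0.0286. The log2 ratio of Gfra2 over Nudt4 rose by 0.74, with -1.17 to -0.94 in the earlier window and -0.54 to -0.050 in the later one. Endod1 over Gfra2 changed by -0.98 and Plekho2 over Gfra2 by -0.86, and Endod1 over Nudt4 by -0.24. For these 4 pairs the libraries of both windows did not overlap, and each reached the smallest exact p of 0.0286 (0.0429 after Benjamini-Hochberg adjustment over 6 pairs). The test exchanges libraries freely, although each window holds 2 time points with 2 replicates each, and libraries of the same time point may be alike. With time points as units, too few divisions would be left for a call. All of these pairs but Endod1 over Nudt4 hold Gfra2, so they are not separate results. The ratios of Endod1 over Plekho2 (change -0.12, exact permutation p = 0.429, adjusted 0.429) and Plekho2 over Nudt4 (-0.12, exact permutation p = 0.343, adjusted 0.411) had overlapping windows. An approximate 95% interval for the difference in log2 change was -0.23 to -0.0074 for the first of these pairs and -0.23 to -0.0071 for the second. It combines the standard errors of both genes as if they were independent, and assumes a normal distribution. Its upper limits are too close to no difference to set these pairs apart.

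Ccnd2, a D-type cyclin that drives entry into S phase, and Myc, a transcription factor that promotes growth, are the other genes imaged for bursting beside Endod1 and Plekho2. Ccnd2 had 57.3% of its 0 h level at 30 min, 18.4% at 1 h and 12.6% at 2 h, and Myc had 47.8%, 48.1% and 43.1%. Their half-maximal times, measured to their lowest point at 24 h, were 34.0 and 26.5 min, beside 21.1 min for Endod1 and 21.2 min for Plekho2. For Myc this value mixes the early fall with a late one, since it still had 51.4% of its 0 h level at 6 h. It therefore does not place the early fall of Myc after those of Endod1 and Plekho2. Unlike Plekho2, neither rose between 2 and 6 h past the test (log2 change -0.070 with edgeR adjusted p = 0.557 for Ccnd2 and 0.25 with edgeR adjusted p = 0.0315 for Myc). From 6 to 24 h both fell further, with log2 changes of -1.49 for Ccnd2 (edgeR adjusted p = 8.8e-11) and -2.71 for Myc (edgeR adjusted p = 1.4e-14). At 24 h 4.27% of Ccnd2 and 7.90% of Myc were left, against 10.3% of Endod1 and 15.2% of Plekho2.

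Gfra2 belongs to the GDNF family of ligands and receptors, in which 5 of 12 other genes could be tested. From 0 to 2 h 1 fell and 2 rose, beside 47.7% of all genes tested that changed (23.8% down and 23.9% up), and the list's median log2 change was -0.13 against 0.026 for all genes. The related co-receptor Gfra1 went from 415 ± 0.24 CPM at 0 h to 195 ± 1.29 CPM at 2 h (SD, n = 2), with a log2 change of -1.09 (SE 0.050, edgeR adjusted p = 6.5e-14). At 30 min its log2 change was 0.046, and at 24 h it stood at 124 ± 4.57 CPM (SD, n = 2), so that its fall was later and smaller than that of Gfra2. Ret, the receptor that signals for both, rose from 0.597 to 1.78 CPM (log2 change 1.56, edgeR adjusted p = 6.9e-07) and rose again from 2 to 6 h (log2 change 1.298). Gfral, a co-receptor of the same family, rose by 1.18 by 2 h and fell by 1.09 from 2 to 6 h. The ligand Gdnf, at 0.475 CPM at 0 h, rose by 1.56 from 2 to 6 h (edgeR adjusted p = 0.0019). Nrtn, the gene of the ligand neurturin, had 4 counts in all libraries together and was not tested.

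Of 12 other genes of inositol pyrophosphate metabolism, 9 could be tested, of which 3 fell and 2 rose from 0 to 2 h, beside 47.7% of all genes that changed, with a median log2 change of 0.020. Nudt3, the other tested phosphatase of the Nudix family in the list, fell from 9.41 ± 0.44 to 7.52 ± 0.067 CPM (SD, n = 2) with a log2 change of -0.32 (SE 0.074, edgeR adjusted p = 0.00073). Its mean at 30 min was still 9.41 CPM. Itpk1, an inositol phosphate kinase, fell by 0.91 and Ppip5k2 fell by 0.18, while the kinases Ipmk and Ip6k2 rose by 0.85 and 0.19 on the log2 scale. From 6 to 24 h, where 59.5% of all genes changed, 5 genes of the list fell and 2 rose, among the latter Ip6k1, which makes the substrates of Nudt4, by 1.21 (edgeR adjusted p = 1.9e-13). Nudt10 and Nudt11, further relatives of Nudt4, had 0 counts.

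Plekho1, the paralog of Plekho2, rose from 16.9 ± 0.72 to 21.2 ± 1.61 CPM (SD, n = 2) by 2 h (log2 change 0.33, SE 0.089, edgeR adjusted p = 0.0032) and rose further, by 0.68 from 6 to 24 h. With its partners, subunits of the kinase CK2, Smurf1 and Akt1, it forms a list of 6 genes, of which 3 fell and 3 rose by 2 h, beside 23.8% and 23.9% of all genes, with a median log2 change of -0.020. Among 11 other nucleases set beside Endod1, 8 could be tested, of which 5 fell by 2 h, beside 23.8% of all genes, and the other 3 did not pass the test, with a median of -0.42 against 0.026 for all genes. The largest of these changes was that of Endou, an RNA endonuclease, with a log2 change of -1.04, and the others were Dnase1 (-0.77), Dnase1l1 (-0.52), Dnase2a (-0.41) and Exog (-0.19). None of the 8 fell as far as Endod1, at -2.73. The choice of Endod1 for its fall makes that comparison a description.

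Within 100 kb of the members, 16 genes were tested, of which 6 fell and 3 rose from 0 to 2 h, again beside 47.7% of all genes. Next to Gfra2 a single gene was tested, the long noncoding RNA 2410012E07Rik, 16.2 kb upstream on the same strand. It fell from 2.90 to 0.560 CPM, a log2 change of -2.36 (SE 0.22, edgeR adjusted p = 5.7e-09), and its log2 change was -3.27 at 24 h. Around Plekho2 4 of 7 genes fell and 1 rose, beside 23.8% and 23.9% of all genes. Among them Pif1, a DNA helicase 7.12 kb away, changed by -0.83 (edgeR adjusted p = 5.5e-08), and Ankdd1a, 32.5 kb away on the other side, by -0.96 (edgeR adjusted p = 0.0084). Rbpms2, an RNA-binding protein gene 49.6 kb away, fell from 43.5 to 13.2 CPM (log2 change -1.72, edgeR adjusted p = 6.9e-16), the largest fall in that window, and was picked out after its value was seen. At 30 min Pif1 and Rbpms2 had log2 changes of -0.31 and -0.17, against -1.57 for Plekho2.

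Around Endod1 2 of 6 genes rose in edgeR's test from 0 to 2 h, beside 23.9% of all genes, and the other 4 did not pass it. With so few genes this count is a description. Sesn3, a stress-response gene 20.9 kb away, rose by 0.39 (edgeR adjusted p = 7.8e-07) and had a log2 change of 2.01 at 24 h. Kdm4d, a histone demethylase gene 81.0 kb away on the other side, changed by -0.066 (edgeR adjusted p = 0.498). Ube2n, an ubiquitin-conjugating enzyme gene whose end lies 1.35 kb from Nudt4, changed by only -0.13 (SE 0.036, edgeR adjusted p = 0.0052), in contrast to -2.64 for Nudt4.

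By the root mean square difference of log2 changes over the 9 induced time points, the closest pair among the 4 genes was Endod1 and Nudt4 (0.392 log2 units), and Gfra2 was farthest from the rest (2.21 to 2.52). This measure includes the depth of the fall. By Pearson correlation over the 10 time points Gfra2 was not the one set apart, with 0.91 to Endod1 and 0.78 to Nudt4. The lowest value was that of Plekho2 and Gfra2 (0.60). Plekho2 had 0.79 with Endod1 and 0.82 with Nudt4, and Endod1 and Nudt4 had 0.94. Among 12056 genes averaging at least 1 CPM, Endod1 was closest to Tifab (0.296), Fxyd5 (0.352) and Cyp4f16 (0.391). Plekho2 was closest to Rgs3, a regulator of G-protein signalling (0.268), Ndrg1 (0.321) and Il16, a cytokine gene (0.375). Picked for likeness over these same time points, these 3 genes had log2 changes from 0 h of -3.56, -4.06 and -4.30 at 2 h. At 24 h they had -2.29, -2.42 and -2.47, beside -4.01 at 2 h and -2.72 at 24 h for Plekho2. The choice fixes this likeness, so it is a description. Nudt4 was closest to Serpinf1 (0.374), Endod1 (0.392) and Dtx4 (0.482).

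Gfra2 had no gene within 0.5 log2 units, whereas Endod1 had 13, Nudt4 5 and Plekho2 4. Its nearest genes were Ramp1, which encodes a receptor activity-modifying protein (0.531), Tnfsf11, the gene of the cytokine RANKL (0.649), and Gm13417 (0.659). Ramp1 had a log2 change from 0 h of -6.23 at 15 h and -4.13 at 24 h, Tnfsf11 had -6.18 and -5.44, and Gm13417 had -5.40 and -5.45. Pearson correlations over the 10 time points, which ignore the depth of the fall, kept 1 of the 3 genes for Endod1, 1 for Plekho2 and 0 for Gfra2. Likeness of course says nothing of shared function.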

How the data were processed

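Chromatin-associated RNA of B3 cells carrying Ikaros-ERt2 was measured in 20 libraries. Alignment to mm10 by the authors used STAR within nf-core/rnaseq, featureCounts gave the reads of each gene with its introns, and the authors deposited raw counts without normalization, 1 column per library. The submitters' processing notes also name CASAVA 2.17. The annotation release and strand setting are not given in the sources used here, and gene positions came from GENCODE (GRCm38/mm10).

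Columns were matched to time point and replicate by the labels. The 16601 genes that reached 10 counts in 2 or more libraries entered edgeR 4.0.16 (R 4.3.3), with TMM scaling, time point as a factor, the quasi-likelihood test and Benjamini-Hochberg adjustment over all genes tested, called at an adjusted p under 0.01. Standard errors and 95% intervals of single genes come from that model. Intervals for a difference between genes combine both standard errors as if independent and assume a normal distribution. Its step was tested on simulated data. Totals of 33296158 to 46868954 counts set the precision, and the reads carry no molecular identifiers. Ratios used counts plus 0.5 and scipy 1.17.1. DESeq2 1.42.0, other scalings, filters and replicates left out served as alternatives.

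The members and lists were chosen with earlier results of these data known. Named beside the members were, by rule, their 3 most similar genes, the nearest tested coding neighbours and overlapping genes within 100 kb, paralogs and called genes of the lists, Ccnd2, Myc and Ikzf1. Other assays were not analysed here.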

Additional observations from a re-analysis of the deposited data

How the results depend on the processing

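Over 50 results and 370 alternative values, 311 were rated as kept. For a tested value this means the same direction and side of the threshold, and for a measured value a move below the replicates' spread. Counts of called genes were rated more loosely. Rated as kept were 2272 genes up from 2 to 6 h without replicate 2 at 2 h, in place of 3246. So were 6944 down from 6 to 24 h with library totals, in place of 4972. Same-numbered libraries shared no deviation on average (mean correlation -0.00032 over 45 pairs of time points, from -0.45 to 0.25, with 3 over 0.1). A mean near 0 cannot exclude pairing or a batch shared by some time points, since values of both signs cancel in it. With a replicate block the log2 change of Plekho2 from 2 to 6 h was 1.20, and no call of a member in the tested steps changed. Calls of other genes did change, with 3204 up from 2 to 6 h in place of 3246. Requiring a change above 2-fold as well removed the calls of Endod1 (-0.24) and Gfra2 (-0.72) from 2 to 6 h, of Endod1 (-0.31) from 6 to 24 h, and of Endod1 (-0.38), Plekho2 (-0.26), Gfra2 (0.60) and Nudt4 (-0.14) in the last step, and left 649 genes up and 542 down, 1810 up and 2118 down, and 756 up and 1067 down in these steps, in place of 3246 and 2462, 4904 and 4972, and 4353 and 4456. Library totals alone turned the change from 6 to 24 h of Plekho2 (-0.18) and Nudt4 (-0.24) and brought that of Gfra2 past the test (-0.31), left 3205 genes up from 6 to 24 h, and in the last step 2373 up and 7140 down. The model of only the libraries compared called 3845 genes down from 2 to 6 h. DESeq2 lost Nudt4 in the last step (-0.12), as did 24 h against 15 h alone (-0.12).

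Leaving out single libraries gave -0.30 to -0.18 for Endod1 from 2 to 6 h, -0.019 to 0.057 for Nudt4 from 6 to 24 h, where the sign turned without replicate 2 at 6 h, and -0.16 to -0.12 for Nudt4 in the last step. With 1 replicate number left out, ratios ran from -1.01 to -0.96 (Endod1 over Gfra2), -0.28 to -0.20 (Endod1 over Nudt4), -0.88 to -0.83 (Plekho2 over Gfra2) and 0.72 to 0.76 (Gfra2 over Nudt4), a design too small for a call, and the half-maximal time of Nudt4 was 16.3 to 16.4 min. Half-maximal times with library totals were 21.6 min for Endod1, 21.3 min for Plekho2 and 16.7 min for Nudt4. On a log2 scale they were 35.3, 36.2, 59.1 and 18.6 min for Endod1, Plekho2, Gfra2 and Nudt4, and with 2 h as the end of the fall 19.97 min for Endod1, 37.2 min for Gfra2 and 16.1 min for Nudt4. Library totals gave rates of -3.12 (Plekho2, first 30 min), -5.10 (Gfra2, 30 min to 1 h) and -0.26, -0.33 and -1.08 log2 units per hour (Endod1, Plekho2 and Gfra2, 1 to 2 h), and 33.9% left of Plekho2 at 30 min. DESeq2's size factors gave -0.35 and -1.10 for Plekho2 and Gfra2 from 1 to 2 h. Pearson correlation kept 1, 1 and 0 of the 3 most similar genes for Endod1, Plekho2 and Gfra2. With GGGAA, 27.1% and 100% of promoters held at least as many as Plekho2 and Nudt4. The causes of these shifts were not tested. Counts of 344 to 40481 per gene and library were well above the filter, so that depth limited the members little.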
